A study of Glycine max with 54 samples.

Results

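The 150 soybean genes described here were higher in aphid-infested than in mock-treated leaves of the susceptible cultivar Dongnong47 at 48 h after infestation (HAI), without such a difference at 24 HAI. They were chosen by their measured values: every infested library had to lie above every mock library at 48 HAI, and the genes were ranked by a score, the log2 ratio of the lowest infested CPM + 1 over the highest mock CPM + 1. CPM are counts scaled to the sum of the counts on chromosomes 1 to 13 of a library. The 150 highest scores were taken among the 32230 genes whose log2 ratio of mean CPM + 1, infested over mock, was under 1 at 24 HAI, out of 32958 annotated genes of these chromosomes and 48764 annotated genes in all. The differences in Dongnong47 at 24 and 48 HAI therefore define the genes and are given as a description without a test, whereas 96 HAI in Dongnong47 and all times in the 2 other genotypes were not used to choose them.

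RNA-seq was run on caged leaf areas of 3 soybean genotypes, the susceptible Dongnong47, P203 (antixenosis, in which aphids avoid the plant) and P746 (antibiosis, in which aphids perform poorly on the plant), at 24, 48 and 96 HAI. Infested leaflets received 6 soybean aphids (Aphis glycines) each, and mock leaflets carried the same cage without aphids. All seedlings shared the growth chamber and stage (first trifoliolate leaf expanded), and the aphid colony had been kept on Dongnong47. The 18 groups, infested and mock in each genotype at each time, held 3 libraries each, which by the study's methods came from independent samples of seedlings grown singly in pots.

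Aphids feed from the phloem, and leaves answer with changes in hormone signalling, cell wall and oxidative defences. Jasmonic acid (JA) is made from linolenic acid, with lipoxygenases at the first step, and is known for wound and chewing-insect responses, whereas salicylic acid (SA) is better known for responses to biotrophic pathogens and many phloem feeders. Transcription factors of the WRKY, MYB, bHLH, bZIP and AP2/ERF families relay these signals to target genes. In whole leaf tissue, fewer cells of a type and less RNA per cell cannot be told apart.

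Library totals ran from 16596469 to 34982790 estimated counts, of which 12148264 to 29079735 lay on chromosomes 1 to 13, so that 3 counts stood for 0.103 to 0.247 CPM. Several libraries did not match their labels in genes that separated the genotypes in mock leaves at 24 HAI. Of 79 such genes between Dongnong47 and P203, the share that looked like Dongnong47 was 6.33% for infested replicate 1 of Dongnong47 at 96 HAI, against 81.0% to 100% in the other 17 libraries labelled Dongnong47. For infested replicate 3 of P746 at 48 HAI this share was 79.7%. Of 77 genes between P203 and P746, 57.1% to 97.4% looked like P203 when the label was P746 and the time 48 or 96 HAI, and 96.1%, 3.90% and 49.4% did so in infested P746 libraries of 24 HAI. At 96 HAI, the assembled loci with counts overlapped little between infested and mock libraries (median Jaccard index of 0.014 in Dongnong47, 0.0168 in P203 and 0.0174 in P746, against 0.542 to 0.672 at 24 and 48 HAI), so that aphid treatment and this difference between library sets cannot be told apart there. Values for P746 are given by library label throughout.

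In Dongnong47, the 150 genes were low in both treatments at 24 HAI, high in infested leaves alone at 48 HAI and mostly low again at 96 HAI. The median over the genes of the mean CPM was 3.23 in infested and 3.41 in mock leaves at 24 HAI, 40.6 in infested and 3.75 in mock leaves at 48 HAI, and 6.59 in infested and 5.64 in mock leaves at 96 HAI. At 48 HAI the genes made up 2.32% ± 0.55 of the counts of chromosomes 1 to 13 in infested leaves and 0.33% ± 0.06 in mock leaves (SD, n = 3 each). The infested libraries were not equal: their medians were 45.6, 46.6 and 22.8 CPM, and replicate 3 was the lowest infested library for 126 of the 150 genes. The median log2 ratio of mean CPM + 1 was 2.63 at 48 HAI (quartiles 2.23 and 3.55) beside 0.451 over all genes tested, and -0.06 at 24 HAI beside 0.02. On this scale the median of all genes tested ran from -0.355 in Dongnong47 at 96 HAI to 0.451 in Dongnong47 at 48 HAI over the 9 comparisons, a shift of 0.806, and the distance of the 150 genes from it was 2.17 at 48 HAI and -0.08 at 24 HAI. In the 2 comparisons that the choice used, the calls were fixed by the choice and nothing is read from them: 149 of the 150 genes were called higher at 48 HAI (background 4.19%) and 0 at 24 HAI (background 1.08%).

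**Figure D1:**
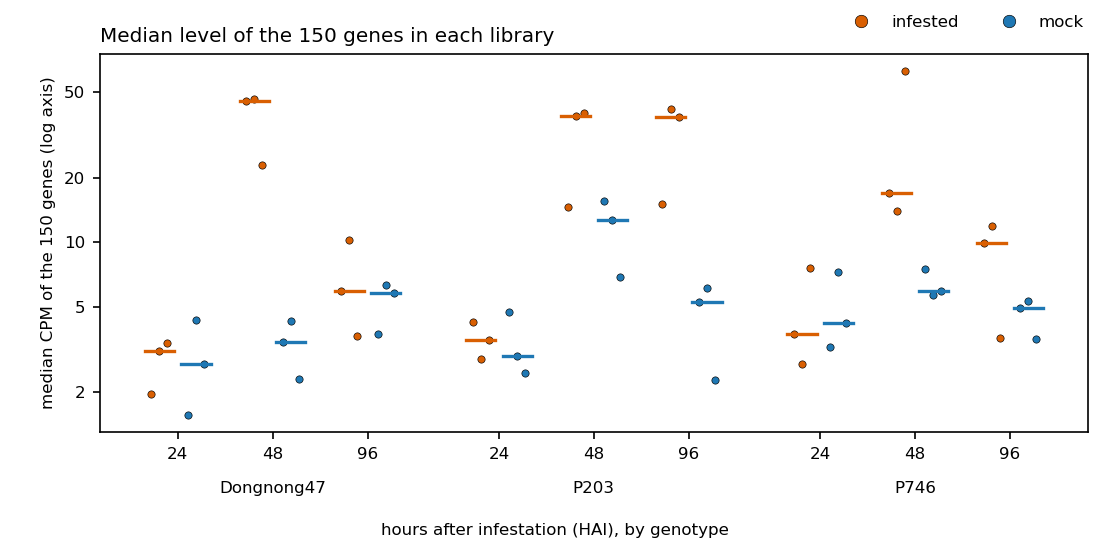
Median CPM over the 150 genes in each of the 54 libraries (log axis), by genotype and HAI, where points are libraries, infested in orange and mock in blue, and lines are the median of 3 libraries. Infested Dongnong47 libraries at 48 HAI sit between 22.8 and 46.6 CPM and mock ones between 2.31 and 4.29 CPM, and infested P203 libraries are at similar levels at 48 and 96 HAI.

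The scores ran from 5.08 to 1.49, with a median of 1.75. The highest score belonged to GLYMA06G05280, with 369, 399 and 128 CPM in infested and 1.43, 1.04 and 2.81 CPM in mock Dongnong47 leaves at 48 HAI. GLYMA09G09430 came next, with 394, 397 and 35.7 CPM in infested and 0.130, 0.065 and 0.216 CPM in mock leaves. GLYMA12G13680 had 59.4, 53.3 and 19.2 CPM in infested leaves and 0.0651, 0 and 0 CPM in mock leaves. GLYMA09G09430 and GLYMA12G13680 thus had no more than 3 counts in any of these mock libraries, whereas GLYMA06G05280 had more, and in all 3 genes infested replicate 3 was the lowest infested library. GLYMA08G07460 followed with 107, 97.6 and 36.2 CPM in infested and 0.0651, 1.11 and 0.577 CPM in mock leaves. GLYMA08G24240 was even among replicates, with 11.5, 10.5 and 11.5 CPM in infested leaves and 0 in the 3 mock libraries. It was 1 of 3 genes listed at 0 in every mock Dongnong47 library of that time. The rest of the 10 highest scores belonged to GLYMA08G20650, GLYMA07G16760, GLYMA06G12890, GLYMA07G40100 and GLYMA02G29100. GLYMA07G16760 and GLYMA06G12890 had 242, 198 and 119 CPM and 282, 392 and 107 CPM in infested leaves, against 2.67, 9.69 and 2.96 CPM and 4.10, 11.4 and 5.92 CPM in mock leaves. GLYMA07G40100 and GLYMA02G29100 showed little spread in infested leaves, at 53.4, 42.4 and 56.5 CPM and at 16.2, 13.8 and 13.3 CPM, against 3.71, 3.45 and 4.11 CPM and 0.718, 0.330 and 0.144 CPM in mock leaves.

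The size of the mock level differed widely among the genes. In mock Dongnong47 leaves at 48 HAI, 42 genes had a mean under 1 CPM, 62 had 1 to 10 CPM and 46 had at least 10 CPM. Means in infested leaves ran from 2.32 to 4114 CPM over the 150 genes. The highest CPM, which are not corrected for transcript length, were those of GLYMA09G04950, GLYMA08G20650, GLYMA04G37530, GLYMA13G31060 and GLYMA06G42061. GLYMA09G04950 had 4067, 4424 and 3851 CPM in infested leaves and 716, 856 and 630 CPM in mock leaves. GLYMA08G20650 had 2379, 1810 and 704 CPM in infested leaves and 50.4, 61.8 and 16.9 CPM in mock leaves. GLYMA13G31060 had 1144, 1349 and 767 CPM in infested leaves and 199, 245 and 150 CPM in mock leaves. The files pair none of these identifiers with a gene name. Close to the threshold, the 5 lowest scores among the 150 (GLYMA12G11200, GLYMA11G19160, GLYMA01G38690, GLYMA13G15590 and GLYMA04G39475) were 1.5 to 1.49, and the 5 genes just outside (GLYMA13G34520, GLYMA09G11720, GLYMA03G31870, GLYMA11G08000 and GLYMA04G40150) scored 1.49 to 1.48. The last gene inside, GLYMA04G39475, had 6.92, 9.14 and 6.99 CPM in infested and 0.911, 1.82 and 0.649 CPM in mock leaves, and the first outside, GLYMA13G34520, had 42.7, 50.3 and 25.6 CPM in infested and 8.46, 8.13 and 0 CPM in mock leaves. Another 14 genes had scores as high but were at or over the limit at 24 HAI, led by GLYMA01G00930 with a score of 2.36 and a log2 ratio of 5.28 at 24 HAI.

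**Figure D2:**
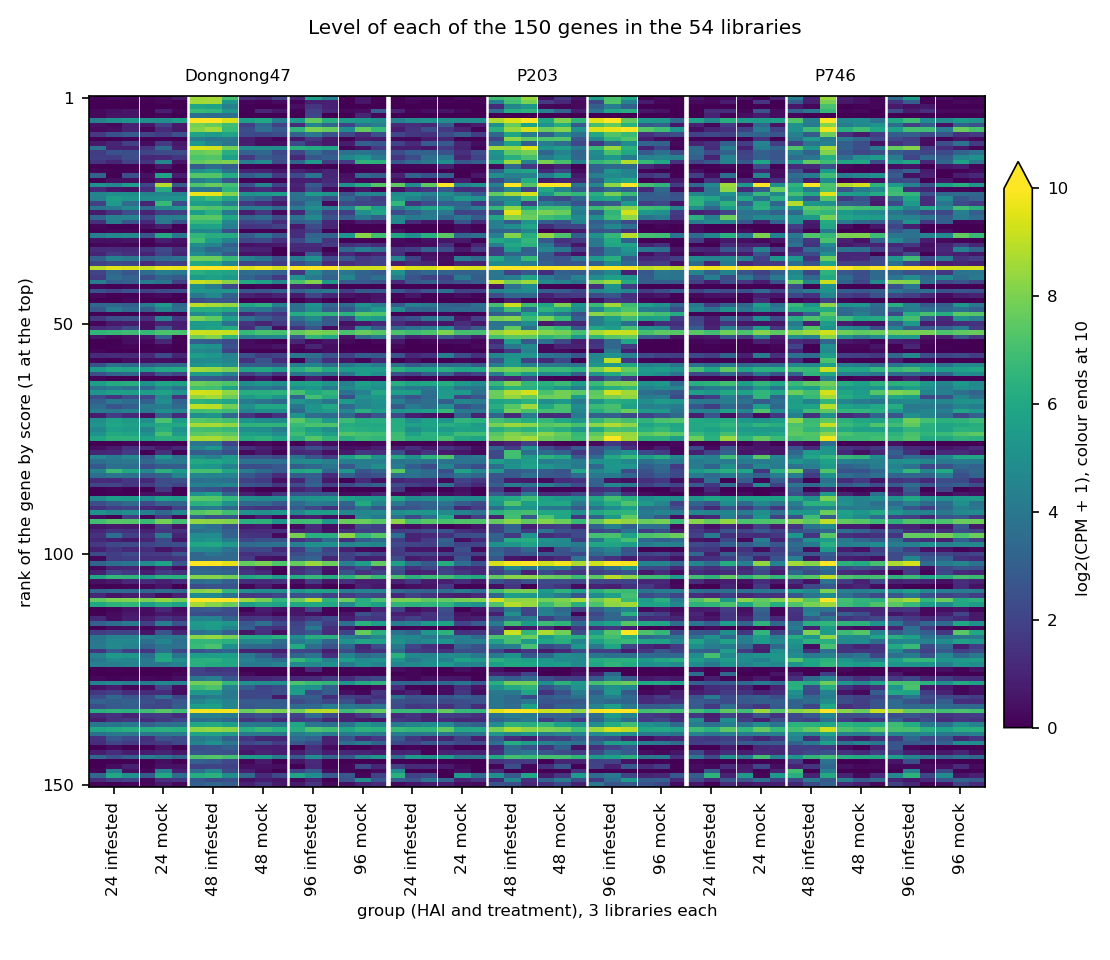
Level of each of the 150 genes (rows, ordered by score) in the 54 libraries (columns, grouped by genotype, HAI and treatment) as log2(CPM + 1), with the colour scale ending at 10. The 3 infested Dongnong47 columns at 48 HAI are bright by choice of the genes, and P203 columns at 48 HAI, infested P203 columns at 96 HAI and the column of P746 48 HAI infested replicate 3 are also bright.

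In the lists of transcription factors and of hormone, callose synthase and catalase genes that the study tabulated, 11 of the 150 genes were found and 139 were not. The study chose the transcription factor, JA and SA genes on these same libraries, so that membership is not independent of the response to aphids. GLYMA02G26160 is listed as LOX2, a lipoxygenase of JA synthesis, and had 47.9, 80.4 and 15.4 CPM in infested and 0.716, 2.02 and 0.216 CPM in mock Dongnong47 leaves at 48 HAI. It was the 1 gene found among 35 listed JA genes of chromosomes 1 to 13, and 0 of 18 SA, 0 of 8 callose synthase and 0 of 3 catalase genes were among the 150. The 150 were taken from 32230 genes, and these lists are too short for anything to be read from such counts. The other 10 of the 11 genes were transcription factors, of 630 listed. GLYMA02G45150 and GLYMA10G12150 are bHLH factors, a family that holds the MYC regulators of the JA response. GLYMA02G45150 had 148, 164 and 130 CPM in infested and 45.1, 45.2 and 17.2 CPM in mock leaves, and GLYMA10G12150 had 27.3, 25.8 and 13 CPM in infested and 2.28, 2.67 and 3.54 CPM in mock leaves. GLYMA02G01420, of the WRKY family known for defence regulation, had 15.3, 16.7 and 9.51 CPM in infested and 2.28, 1.95 and 2.02 CPM in mock leaves. GLYMA04G04355, of the AP2/ERF family that holds the ethylene response factors, had 31.5, 36.3 and 16.5 CPM in infested and 3.39, 4.55 and 4.55 CPM in mock leaves.

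The remaining listed genes belong to families with known roles in growth, hormone response and stress. GLYMA06G13960 is a growth-regulating factor (GRF) with a WRC domain, a class that promotes cell proliferation in leaves, and had 42.8, 49.3 and 39.1 CPM in infested and 8.07, 4.81 and 2.24 CPM in mock leaves at 48 HAI in Dongnong47. GLYMA12G29720, an auxin response factor of the B3 superfamily, had 22.8, 21.6 and 20.7 CPM in infested and 5.66, 3.45 and 1.3 CPM in mock leaves. GLYMA04G40960, a homeobox (HB) factor, had 20.2, 19.2 and 23.1 CPM in infested and 5.21, 4.55 and 2.02 CPM in mock leaves. In these 3 genes infested replicate 3 was close to the other infested libraries. GLYMA05G36110, a C3H zinc finger gene, had 43.0, 35.9 and 20.2 CPM in infested and 4.30, 4.49 and 5.48 CPM in mock leaves. GLYMA05G22860, a bZIP factor, and GLYMA01G27720, a MYB factor, were at lower CPM, with 6.85, 6.14 and 4.03 CPM and with 10.7, 11.8 and 9.37 CPM in infested leaves, against 0.260, 0.130 and 0 CPM and 1.89, 2.60 and 1.23 CPM in mock leaves.

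**Figure D3:**
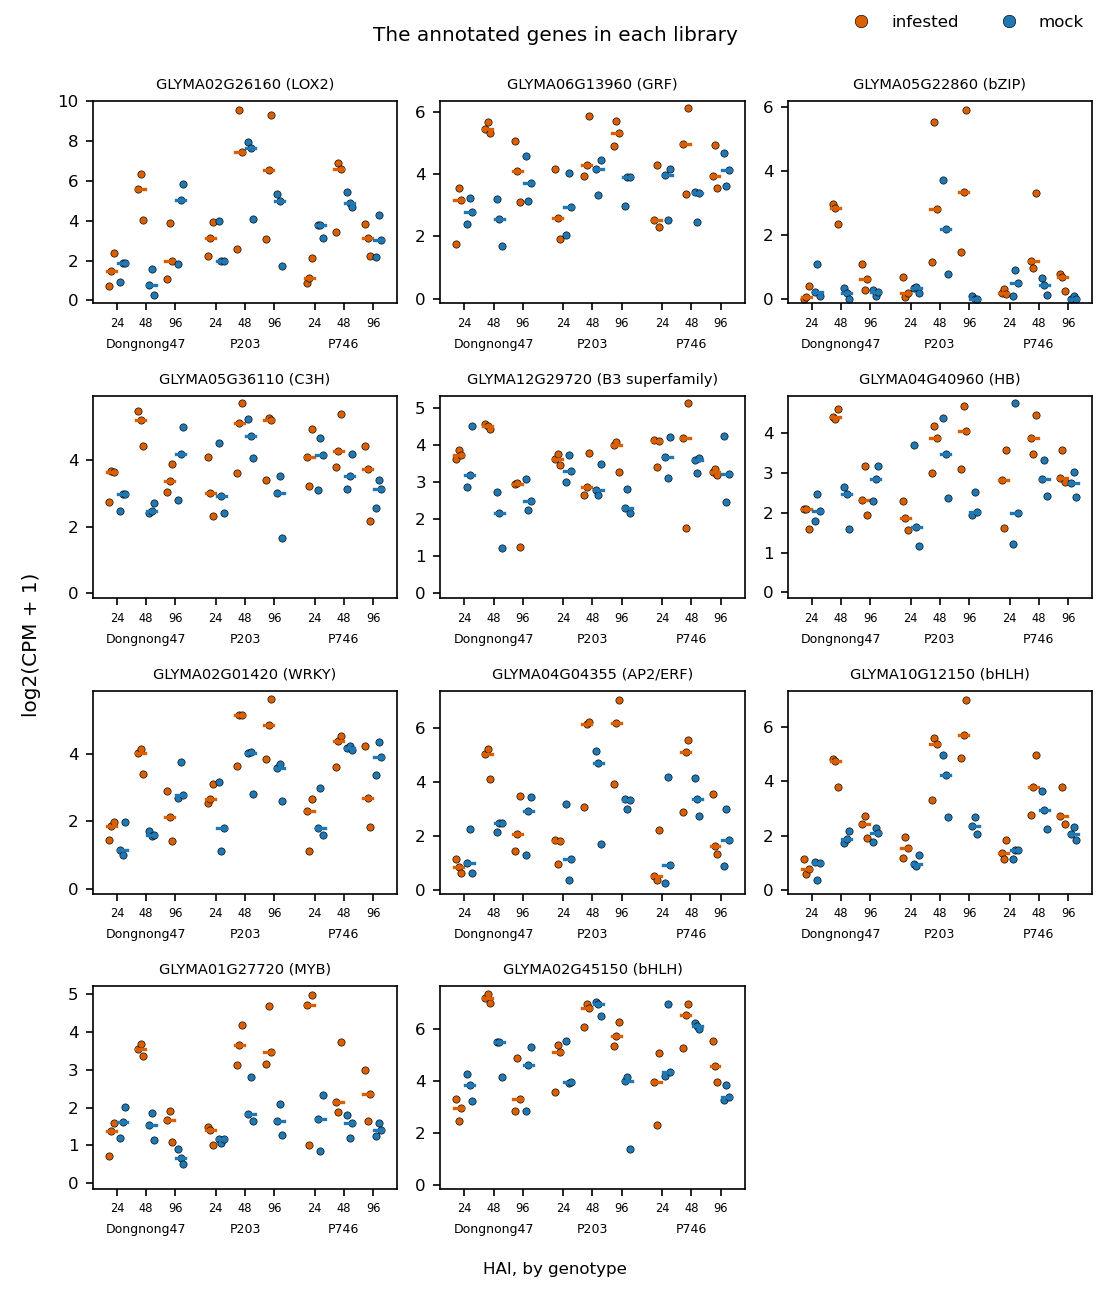
Level of the 11 listed genes among the 150 as log2(CPM + 1) in each library, by genotype and HAI; points are libraries, infested in orange and mock in blue, and lines are the median of 3 libraries. Infested and mock Dongnong47 points do not overlap at 48 HAI by choice of the genes; at 96 HAI in P203 they are separate for the GRF, bZIP, B3, HB, WRKY, AP2/ERF, bHLH and MYB genes and overlap for LOX2 and C3H.

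Whether the difference lasted in Dongnong47 was asked at 96 HAI. Infested leaves were still higher for 6 of the 150 genes and lower for 0, where 0.953% of the 22775 genes tested were called higher and 0.729% lower (edgeR, adjusted p under 0.05 with a log2 fold change of 1 or more). In the filter on low counts, 124 of the 150 genes passed and 26 did not, and 5 of those that passed did so only through the infested libraries. Of the 6 called, 2 (GLYMA01G38500 and GLYMA12G23150) were among these 5 and 4 were not. All 3 infested libraries lay above all 3 mock libraries for 38 of the 150 genes, where 7.71% of genes with a mean of at least 1 CPM did so. They lay below all 3 mock libraries for 12 genes. For this direction and for log2 ratios of at most -1, shares over all genes are not given in any comparison. The log2 ratio of mean CPM + 1 was at least 1 for 37 genes (background 6.01%) and at most -1 for 21. Its median was 0.382 (quartiles -0.496 and 0.960), which is 0.737 above that of all genes tested, -0.355. At an unadjusted p under 0.05, 38 genes were higher and 11 lower (background 12.7% higher and 12.3% lower). The calls depended on single libraries, over all genes as well as among the 150. Without infested replicate 1, the library that did not match its label, 0 of the 150 genes were called (background 0.0298% higher). The count was also 0 without infested replicate 2 (background 0.00424%) or mock replicate 2 (0.0215%). It was 1 without infested replicate 3 (background 0.084%) or mock replicate 3 (0.171%). With the replicate number as a block, 21 were called, 16 higher (background 2.54%) and 5 lower (2.16%). DESeq2 called 42 higher (background 5.89%) and 9 lower (6.15%), the fit of all 54 libraries called 23 higher (background 4.48%) and 3 lower (3.81%), and the fit of all loci called 11 higher (background 6.85%) and 1 lower (2.4%).

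The 6 genes called at 96 HAI in Dongnong47 were all also called in P203 at 96 HAI. In infested replicate 1 of Dongnong47, 6.33% of the genes that separate Dongnong47 from P203 looked like Dongnong47. Without that library, 0 of the 6 were called in Dongnong47, beside 0.0298% of all genes tested called higher. The same held without infested replicate 2 (background 0.00424%) or mock replicate 2 (0.0215%). Whether infested replicate 1 made the overlap with P203 was not tested. The share of all genes called under both labels is not given, so nothing is read from the overlap. GLYMA12G23150 and GLYMA01G38500 passed the filter on low counts only through the infested libraries under both labels. GLYMA12G23150 had 40.9, 32.4 and 7.44 CPM in infested and 0, 0 and 0.269 CPM in mock Dongnong47 leaves (log2 fold change 8.24 ± 1.08 SE, adjusted p = 0.0279), and 14.2, 34.9 and 24.3 CPM in infested and 0.052, 0.231 and 0 CPM in mock P203 leaves (7.69 ± 0.80, adjusted p = 0.0142). GLYMA13G01570 had 141, 273 and 40.4 CPM in infested and 6.56, 6.62 and 5.43 CPM in mock Dongnong47 leaves (4.96 ± 0.64, adjusted p = 0.0272), and 240, 373 and 69.3 CPM in infested and 6.72, 7.23 and 6.66 CPM in mock P203 leaves (4.77 ± 0.68, adjusted p = 0.0219). In both genes the groups were far apart under either genotype label, and the spread lay in the infested libraries. GLYMA10G39451 had 76.6, 68.6 and 56.1 CPM in infested and 0.127, 0.398 and 2.2 CPM in mock Dongnong47 leaves (6.5 ± 0.93, adjusted p = 0.0326), and in P203 the log2 fold change was 6.99 ± 1.17 (adjusted p = 0.0280). GLYMA06G44780 differed by 3.72 ± 0.63 in Dongnong47 (adjusted p = 0.0449) and by 3.94 ± 0.69 in P203 (adjusted p = 0.0297). GLYMA02G16390 showed the smallest of these differences, with 39.1, 55.1 and 52.8 CPM in infested and 18.5, 20.6 and 21.6 CPM in mock Dongnong47 leaves (1.73 ± 0.30, adjusted p = 0.0478), and a log2 fold change of 2.29 ± 0.32 in P203 (adjusted p = 0.0217). GLYMA01G38500 had 3.38, 10.5 and 1.8 CPM in infested and 0.0634, 0.0663 and 0 CPM in mock Dongnong47 leaves (adjusted p = 0.0330), and 15.1, 67.3 and 7.50 CPM in infested and 0.052, 0 and 0.0616 CPM in mock P203 leaves (adjusted p = 0.0226). Its mock libraries held fewer than 3 counts each, so no fold is given.

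**Figure D4:**
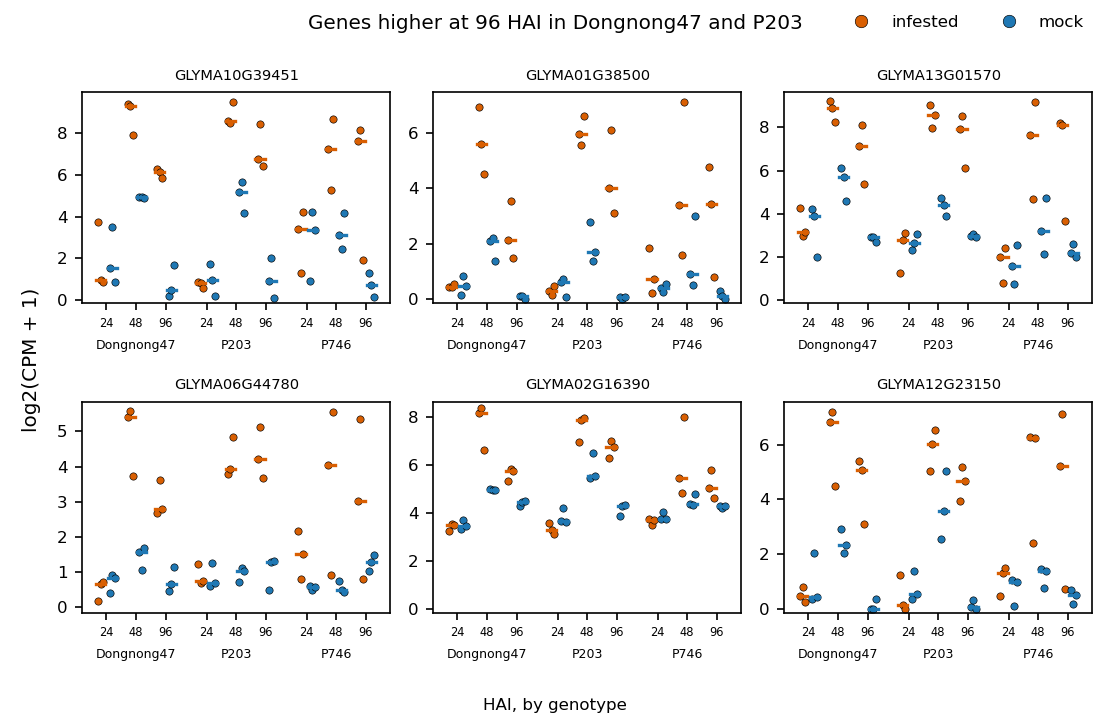
Level of the 6 genes called at 96 HAI in both Dongnong47 and P203 as log2(CPM + 1) in each library, by genotype and HAI; points are libraries, infested in orange and mock in blue, and lines are the median of 3 libraries. Infested points lie above all mock points at 96 HAI in Dongnong47 and P203 in each panel, whereas in libraries labelled P746 at 96 HAI infested replicate 3 falls near the mock points in most panels. Infested replicate 1 of Dongnong47 at 96 HAI did not match its label.

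Means of most of the 150 genes were lower in infested Dongnong47 leaves at 96 than at 48 HAI: for 102 the mean CPM at 48 HAI was more than 4 times and for 46 more than 10 times as high, and 2 were at least as high at 96 HAI. This comparison uses the infested libraries that chose the genes and carries no test. GLYMA09G09430 had 0.0805, 0.855 and 0.902 CPM in infested Dongnong47 leaves at 96 HAI, and GLYMA12G13680 had 0.322, 1.92 and 0.902 CPM. GLYMA09G04950 kept separate groups at 96 HAI without being called, at 1242, 1807 and 1292 CPM in infested and 613, 611 and 630 CPM in mock leaves (log2 fold change 1.66 ± 0.37, adjusted p = 0.0672). GLYMA13G15590 differed in the other direction without being called, at 0.161, 1.07 and 0 CPM in infested and 4.88, 29.8 and 5.48 CPM in mock leaves (log2 fold change -4.58 ± 1.25, adjusted p = 0.0904). LOX2 (GLYMA02G26160) had 1.13, 13.9 and 2.93 CPM in infested and 2.60, 31.7 and 56.6 CPM in mock leaves at 96 HAI (-1.98 ± 1.2, adjusted p = 0.346).

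In the antixenosis genotype P203, the level of the genes was low at 24 HAI, intermediate in mock leaves at 48 HAI, and high in infested leaves at 48 and 96 HAI. The median over the genes of the mean CPM was 4.48 in infested and 3.85 in mock leaves at 24 HAI, 32.7 in infested and 14.1 in mock leaves at 48 HAI, and 31.3 in infested and 5.11 in mock leaves at 96 HAI. At 24 HAI, 0 of the 150 genes were called in P203 (110 passed the filter on low counts, 40 did not), where 0% of all 22505 genes tested were called. Of the 150, 2 were higher at an unadjusted p under 0.05 (background 1.92%), and 6 had a log2 ratio of at least 1 (background 4.99%). The groups were separate, infested above mock, for 5 (background 5.84%) and below mock for 1. The median log2 ratio was 0.005 in P203 at 24 HAI beside 0.091 over all genes tested. DESeq2 also called 0 of the 150 genes there.

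At 48 HAI in P203, the infested and mock libraries overlapped. Library medians were 14.6, 38.7 and 40.2 CPM in infested and 15.6, 12.7 and 6.87 CPM in mock leaves, and infested replicate 1, which lay at the level of the mock libraries, was the lowest infested library for 92 of the 150 genes. The genes made up 1.87% ± 0.56 of counts in infested and 1.06% ± 0.51 in mock leaves (SD, n = 3 each). The log2 ratio had a median of 0.903 (quartiles 0.336 and 1.53) beside -0.054 over all genes tested, and it was at least 1 for 68 genes (background 2.78%) and at most -1 for 2. The groups were separate, infested above mock, for 50 genes (background 6.16%). By edgeR, 0 of the 150 genes were called, as were 0% of the 22398 genes tested, and the smallest adjusted p among the 150 was 0.721. At an unadjusted p under 0.05, 51 of the 150 were higher and 0 lower (background 3.62% higher and 2.63% lower). DESeq2 called 26 of the 150 genes (background 0.275%), and a fit of all 54 libraries that shared the spread called 3 (background 0.0150%). The filter was passed by 142 genes and missed by 8, and 4 of the 142 passed only through infested libraries.

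Single genes followed this pattern unevenly in P203 at 48 HAI. GLYMA06G05280 had 117, 143 and 346 CPM in infested and 0.365, 1.97 and 0.472 CPM in mock leaves (log2 fold change 7.88 ± 1.01, adjusted p = 0.774). GLYMA13G01570 had 528, 248 and 381 CPM in infested and 25, 19.8 and 14 CPM in mock leaves (4.41 ± 0.42, adjusted p = 0.721). The groups were wide apart in both, and neither passed the threshold. GLYMA02G29100 instead had 3.09, 305 and 180 CPM in infested and 143, 153 and 5.15 CPM in mock leaves, with the mock values inside the range of the infested ones (0.83 ± 1.54, adjusted p = 0.92). LOX2 spread in the same way, at 4.88, 756 and 176 CPM in infested and 247, 202 and 16.1 CPM in mock leaves. In these 2 genes infested replicate 1 and mock replicate 3 were the low libraries of P203. GLYMA08G24240 was listed at 0 in all 18 libraries labelled P203, the only 1 of the 150 genes for which this held, and among libraries labelled P746 it was at 0 to 0.960 CPM.

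At 96 HAI in P203, infested leaves were higher for 61 of the 150 genes and lower for 0, where 3.57% of the 23208 genes tested were called higher and 3.56% lower. Library medians were 15.1, 41.9 and 38.3 CPM in infested and 5.28, 6.16 and 2.28 CPM in mock leaves, which do not overlap, and the genes made up 2.05% ± 0.58 of counts in infested and 0.372% ± 0.095 in mock leaves (SD, n = 3 each). The log2 ratio had a median of 2.22 (quartiles 1.26 and 3.22), 1.97 above that of all genes tested, and it was at least 1 for 121 genes (background 15.5%) and at most -1 for 0. The groups were separate, infested above mock, for 105 genes (background 25.3%) and below mock for 1. At an unadjusted p under 0.05, 103 were higher and 0 lower (background 13.3% higher and 14.8% lower). The filter was passed by 141 genes and missed by 9. Of the 61 called, 19 had passed it only through the infested libraries, out of 22 that did, and 42 had not. DESeq2 called 101 (background 6.21%), and the fit of all loci called 38 (background 2.76%). The count fell to 0 without infested replicate 2 (background 0.0126%), mock replicate 1 (0%) or mock replicate 2 (0.00419%). It fell to 20 without mock replicate 3 (background 0.809%). With the replicate number as a block it was 0, with 0% of all genes tested called.

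The lowest adjusted p values at 96 HAI in P203 were those of GLYMA13G31060, GLYMA06G05280 and GLYMA12G23150. Of these, GLYMA06G05280 and GLYMA12G23150 passed the filter on low counts only through the infested libraries. GLYMA13G31060 had 616, 1418 and 941 CPM in infested and 21.6, 22.4 and 9.61 CPM in mock leaves (log2 fold change 5.56 ± 0.52, adjusted p = 0.0134). GLYMA06G05280 had 48.6, 138 and 61.1 CPM in infested and 0, 0.231 and 0 CPM in mock leaves (9.73 ± 0.98, adjusted p = 0.0134). Infested replicate 2 was the highest library for both. Of the 10 genes with the highest scores, GLYMA07G40100 reached 61.2, 156 and 110 CPM in infested P203 leaves, against 1.72, 2.83 and 4.01 CPM in mock leaves (4.91 ± 0.58, adjusted p = 0.0158), which is above its level in infested Dongnong47 leaves at 48 HAI. GLYMA12G13680 had 7.15, 18.2 and 7.36 CPM in infested leaves and 0 in the 3 mock libraries (adjusted p = 0.0219). It also passed the filter only through the infested libraries. GLYMA09G04950, with the highest CPM of the 150, had 4103, 4910 and 3168 CPM in infested and 503, 625 and 497 CPM in mock leaves (2.62 ± 0.51, adjusted p = 0.0371).

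Among the listed genes, the bZIP, MYB and one of the bHLH factors were called higher in P203 at 96 HAI and the other 8 genes were not. GLYMA10G12150 (bHLH) had 28.5, 51.6 and 128 CPM in infested and 4.05, 5.49 and 3.20 CPM in mock leaves (log2 fold change 3.74 ± 0.56, adjusted p = 0.0239). GLYMA01G27720 (MYB) had 7.98, 24.9 and 10.1 CPM in infested and 2.13, 3.24 and 1.42 CPM in mock leaves (2.44 ± 0.53, adjusted p = 0.0444). GLYMA05G22860 (bZIP) had 1.73, 9.12 and 58.5 CPM in infested and 0.052, 0 and 0 CPM in mock leaves (adjusted p = 0.0368), under 3 counts in each mock library. It passed the filter on low counts only through the infested libraries. LOX2 had 7.53, 93.4 and 638 CPM in infested and 39.2, 31.2 and 2.34 CPM in mock leaves, and with this spread it was not called (3.12 ± 1.52, adjusted p = 0.234). The AP2/ERF gene GLYMA04G04355 had 14.2, 72.2 and 130 CPM in infested and 9.41, 7.0 and 9.18 CPM in mock leaves (2.73 ± 0.74, adjusted p = 0.0706), and the WRKY gene GLYMA02G01420 had 13.3, 28.2 and 48.5 CPM in infested and 11.0, 12 and 5.05 CPM in mock leaves (1.43 ± 0.47, adjusted p = 0.107). Over the whole lists at 96 HAI in P203, 2 of 34 tested JA genes were called higher and 1 lower, 0 of 17 SA genes in either direction, and 20 of 565 transcription factors higher and 12 lower, beside 828 higher and 827 lower of all 23208 genes tested (3.57% and 3.56%). In Dongnong47 at 96 HAI, 0 of 33 tested JA genes were called higher and 2 lower, and 8 of 537 transcription factors higher and 7 lower, beside 217 higher and 166 lower of all 22775 genes tested (0.953% and 0.729%). Most of the listed genes outside the 150 were not called in either genotype. The same held for most of all genes tested, so nothing particular to the lists is read from this.

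**Figure D5:**
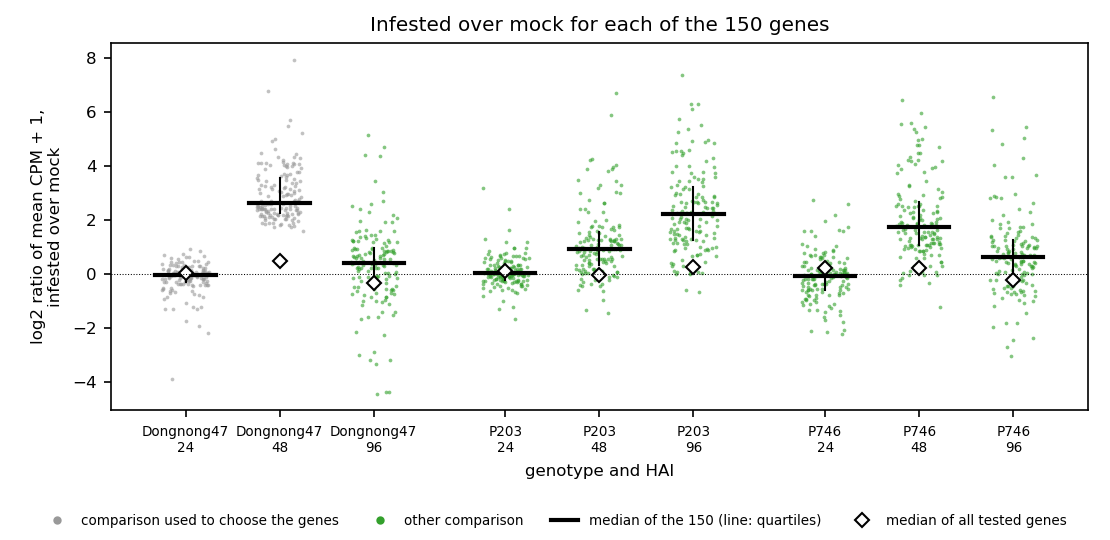
Log2 ratio of mean CPM + 1, infested over mock, for each of the 150 genes in the 9 comparisons of genotype and HAI; grey points are the 2 comparisons that the choice of genes used, the black line is the median, thin lines are quartiles and the diamond is the median of all genes tested. The medians are near 0 at 24 HAI in each genotype, 0.903 and 2.22 in P203 at 48 and 96 HAI, 1.74 and 0.609 in libraries labelled P746, and 0.382 in Dongnong47 at 96 HAI.

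In libraries labelled P746, the antibiosis genotype, the level of the 150 genes was highest in infested leaves at 48 HAI. The median over the genes of the mean CPM was 5.56 in infested and 6.58 in mock leaves at 24 HAI, 39.6 in infested and 7.58 in mock leaves at 48 HAI, and 10.4 in infested and 6.02 in mock leaves at 96 HAI. At 24 HAI, 0 of the 150 genes were called (122 passed the filter, 28 did not), where 0.00422% of the 23703 genes tested were called higher. The median log2 ratio there was -0.07, which is 0.290 below that of all genes tested, and 13 genes had a ratio of at least 1 (background 12.5%) and 19 of at most -1. Groups were separate, infested above mock, for 11 genes (background 19.0%) and below mock for 5. At an unadjusted p under 0.05, 7 were higher and 7 lower (background 8.37% higher and 4.54% lower). DESeq2 called 5 lower (background 0.949%) and 0 higher. The MYB gene GLYMA01G27720 was uneven at that time, with 25.2, 1.02 and 30.8 CPM in infested and 2.25, 0.807 and 4.02 CPM in mock leaves. In the genotype check, 96.1%, 3.90% and 49.4% of the 77 genes between P203 and P746 looked like P203 in these infested libraries. The source of the spread was not tested, and the comparison at 24 HAI holds for library labels.

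At 48 HAI, library medians in those labelled P746 were 17, 14 and 62.7 CPM in infested and 7.48, 5.67 and 5.92 CPM in mock leaves, which do not overlap, and infested replicate 3, the library that resembled Dongnong47 in the genotype check, was far above the rest. By edgeR 0 of the 150 genes were called, with 0% of the 22538 genes tested, and the smallest adjusted p among the 150 was 0.203. The filter was passed by 133 genes, 8 of them only through infested libraries, and missed by 17. At an unadjusted p under 0.05, 58 of the 150 were higher and 0 lower (background 5.58% higher and 3.31% lower), and the groups were separate for 60 (background 9.53%). DESeq2 called 36 (background 0.995%), and the fit of all 54 libraries called 26 (background 0.605%). Without infested replicate 2, edgeR called 40 higher (background 2.67%). The log2 ratio had a median of 1.74 (quartiles 1.06 and 2.66) and was at least 1 for 117 genes (background 15%) and at most -1 for 1. Without infested replicate 3, the median was 0.878 beside 0.128 over all genes tested, and 64 genes had a ratio of at least 1. The share of all genes at such a ratio without that library is not given, and the 15% above includes it. GLYMA08G20650 shows the spread, with 156, 18.7 and 2601 CPM in infested and 23.6, 28.2 and 12.7 CPM in mock leaves (log2 fold change 5.17 ± 1.66, adjusted p = 0.556). GLYMA04G40960 (HB) was more even, with 13.5, 10.2 and 20.9 CPM in infested and 6.14, 9.05 and 4.29 CPM in mock leaves (1.02 ± 0.38, adjusted p = 0.556).

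At 96 HAI, library medians in those labelled P746 were 9.96, 11.9 and 3.58 CPM in infested and 4.95, 5.35 and 3.56 CPM in mock leaves, with infested replicate 3 at the level of the mock libraries and lowest for 101 of the 150 genes. By edgeR 0 of the 150 genes were called, where 0.32% of the 23094 genes tested were called higher and 0.186% lower, and the smallest adjusted p was 0.0594. The filter was passed by 119 genes, 4 of them only through infested libraries, and missed by 31. The log2 ratio had a median of 0.609 (quartiles -0.219 and 1.26), 0.838 above that of all genes tested, and was at least 1 for 53 genes (background 6.49%) and at most -1 for 11. At an unadjusted p under 0.05, 44 were higher and 5 lower (background 11.6% higher and 9.82% lower). The groups were separate, infested above mock, for 35 (background 7.60%) and below mock for 6. DESeq2 called 41 higher (background 4.33%) and 4 lower (3.21%), the fit of all 54 libraries 27 (background 2.67%), and the fit of all loci 2 higher (background 3.35%) and 2 lower (1.5%). GLYMA09G04950 had 1898, 2285 and 1501 CPM in infested and 640, 637 and 671 CPM in mock leaves, with separate groups (log2 fold change 1.85 ± 0.35, adjusted p = 0.0722). GLYMA13G31060 had 436, 628 and 11.0 CPM in infested and 16.6, 23.0 and 12.6 CPM in mock leaves (4.69 ± 1.3, adjusted p = 0.126), with infested replicate 3 below all mock libraries.

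Whether the 96 HAI difference itself varied between genotypes was asked with an interaction term over 12 libraries. For P203 against Dongnong47, 144 of the 150 genes could be tested and 0 were called, as were 0% of the 24420 genes tested, with a smallest adjusted p of 0.285 among the 150. At an unadjusted p under 0.05, the infested-over-mock difference was larger in P203 for 56 genes and smaller for 1 (background 8.15% larger), and DESeq2 called 19 (background 1.19%). For P746 against Dongnong47, 136 genes could be tested and 0 were called, as were 0% of the 24324 genes tested, and at an unadjusted p under 0.05 the difference was larger for 2 genes and smaller for 1 (background 1.41% larger). Shares over all genes for a smaller difference are not given in either interaction. By edgeR, therefore, no difference between genotypes in the response of a single gene passed the threshold. The counts of calls were 61 in P203 (background 3.57%) and 6 in Dongnong47 (background 0.953%). Of these, 19 and 2 had passed the filter on low counts only through the infested libraries. Both counts fell to 0 when some single libraries were left out. Infested replicate 1 of Dongnong47, which did not match its label, took part in both tests. In every library labelled P746 at 96 HAI, 74.0% to 97.4% of the 77 genes between P203 and P746 looked like P203. The test for P746 therefore holds for library labels and may not be one of the antibiosis genotype.

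Seen over all 18 groups, the highest mean CPM lay in infested Dongnong47 at 48 HAI for 81 of the 150 genes, the group that chose them, in infested P203 at 96 HAI for 34, and in infested P203 and infested P746 at 48 HAI for 12 each. Among the 6 Dongnong47 groups, 140 genes were highest in infested leaves at 48 HAI, 9 in mock leaves at 96 HAI and 1 in mock leaves at 24 HAI. A log2 ratio of at least 1 was reached in P203 at 48 HAI, P203 at 96 HAI and P746 at 48 HAI together by 58 genes and in none of these by 8, among them GLYMA08G24240. Shares over all genes are not given for these counts. All values for P746 at 48 HAI here include infested replicate 3, which resembled Dongnong47 in the genotype check. Without that library, 64 genes in place of 117 had a ratio of at least 1 in P746 at 48 HAI. Across the 150 genes, the log2 ratio in Dongnong47 at 48 HAI had a Spearman correlation of 0.469 with that in P203 at 48 HAI, 0.386 with P203 at 96 HAI, 0.542 with P746 at 48 HAI, 0.281 with P746 at 96 HAI and 0.242 with Dongnong47 at 96 HAI. These are descriptions over genes of the same libraries, and genes are not independent replicates. The Dongnong47 libraries of 48 HAI also chose the genes, which limits the range of that ratio. No support for a shared response is read from these correlations. The genes with a mock mean under 1, of 1 to 10 and of at least 10 CPM at 48 HAI in Dongnong47 supplied 15 of 42, 21 of 62 and 25 of 46 of the calls in P203 at 96 HAI.

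The mock levels of these genes were also compared between genotypes. At 48 HAI, 132 of the 150 genes had a higher mean CPM in mock P203 than in mock Dongnong47 leaves, 38 of them at least 4-fold higher on the CPM + 1 scale, whereas this held for 81 genes at 24 HAI and 42 at 96 HAI. For libraries labelled P746 the counts were 109 genes at 24 HAI, 99 at 48 HAI and 55 at 96 HAI. Low mock levels in Dongnong47 at 48 HAI are part of the choice of the genes, so no test is given. GLYMA13G31060 had 615, 884 and 421 CPM in mock P203 leaves at 48 HAI, against 199, 245 and 150 CPM in mock Dongnong47 leaves. GLYMA06G12890 had 211, 291 and 32.4 CPM in mock P203 leaves, against 4.10, 11.4 and 5.92 CPM in mock Dongnong47 leaves. LOX2 had 247, 202 and 16.1 CPM in mock P203 leaves, against 0.716, 2.02 and 0.216 CPM in mock Dongnong47 leaves. In infested leaves at 48 HAI, 40 genes were at least as high in P203, and 40 in libraries labelled P746, as in Dongnong47.

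The genes were spread over all 13 chromosomes, with 3.32 per 1000 genes on chromosome 8 as the lowest and 5.77 on chromosome 12 as the highest density, and 16 genes on chromosome 6 as the highest number. The identifiers of 10 pairs of these genes differ by at most 100 in their number along the chromosome. They include GLYMA05G36100 and the C3H gene GLYMA05G36110, GLYMA06G12890 and GLYMA06G12900, GLYMA07G16750 and GLYMA07G16760, GLYMA09G02590 and GLYMA09G02600, and GLYMA06G44780 and GLYMA06G44810. Adjacent copies of a gene family can share reads, and how reads with several matches were counted is not given in the sources used here, so the values of such pairs may not be independent.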

How the data were processed

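RNA-seq of 54 libraries was analysed from the deposited files of estimated counts per gene, 1 per library (18.0% to 23.3% of values not whole numbers). According to the methods and the submitters' processing notes, the authors base-called with CASAVA 1.8 (Bowtie is also named), mapped reads to Glycine_max_v2.1 with HISAT2 and counted with StringTie; the use of strand is not given in the sources used here. Estimated counts were rounded, a gene not listed in a library counted as 0, and blank identifiers, present in 7 libraries, were dropped. Of 53971 loci, annotated genes of chromosomes 1 to 13 were used; an alternative used all loci. Floors cover counting error only, whereas SDs and SEs include the spread between libraries. Replicates differed by far more than sampling noise (a chi-square of 26.9 or more per gene in all 54 replicate pairs). Identifiers matched 0 of the RefSeq genes, so names come from the study's tables and no sequence is shown.

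Infested and mock libraries were compared within genotype and time with edgeR 4.0.16 (TMM, filterByExpr at a count of 10 and a total of 15) and its quasi-likelihood F test (adjusted by Benjamini-Hochberg over all genes tested), and calls needed an adjusted p under 0.05 with a log2 fold change of 1 or more in size. SEs were derived from the fold change and its F statistic. All adjusted p values are from edgeR unless DESeq2 1.42.0 is named. Interactions were fitted over 12 libraries. R 4.3.3, Python 3.11.15 and matplotlib 3.10.9 were used. The edgeR code was tested on simulated data (23311 genes, means of Dongnong47 at 96 HAI, 200 changed): 49% of 2-fold and 100% of 4-fold changes were recovered, with 4 false calls. Every simulated gene had the same dispersion of 0.05, and only genes with high mean counts were changed. Recovery needed an adjusted p under 0.05 and no minimum fold. The spread of the deposited replicates was not modelled, so these shares need not hold for them.

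Genes named are the 10 highest scores, all listed genes, 5 on each side of the score limit, the 5 highest CPM, up to 3 called genes with the lowest adjusted p per direction and comparison, and up to 5 called most often; GLYMA01G00930, GLYMA08G24240 outside Dongnong47 and the identifier pairs were added after their values were seen. The 150 genes, the lists and the tests were chosen with earlier results of these data known. Replicate numbers were checked by the correlation of deviations of same-numbered infested and mock libraries over 14301 genes: every number exceeded 0.1 in Dongnong47 at 24 HAI (0.636, 0.541 and 0.243) and 96 HAI (0.376, 0.170 and 0.283) and in no other comparison. Alternatives were DESeq2, RLE, totals without TMM, no filter, the replicate block, all loci, 1 fit of all libraries, no minimum fold change, and leaving out each library.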

Additional observations from a re-analysis of the deposited data

How the results depend on the processing

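Counts of the 150 genes called depended on tool, libraries and table, and the cause was not tested. With DESeq2, 51 genes (42 higher, 9 lower) were called in Dongnong47 at 96 HAI in place of 6, 26 in P203 at 48 HAI in place of 0, 101 in P203 at 96 HAI in place of 61, 5 (all lower), 36 and 45 in P746 at 24, 48 and 96 HAI in place of 0, and 19 in the P203 interaction in place of 0. With the replicate block, the counts were 21 in Dongnong47 and 0 in P203 at 96 HAI. With all loci, they were 12, 38 and 4 in Dongnong47, P203 and P746 at 96 HAI. In 1 fit of all libraries, they were 26 in Dongnong47 at 96 HAI, 3 in P203 at 48 HAI, and 26 and 27 in P746 at 48 and 96 HAI. Leaving out 1 library gave 0 to 6 in Dongnong47 at 96 HAI (6 without mock replicate 1, 3 higher and 3 lower, beside 0.392% and 1.43% of all genes), 0 to 60 in P203 at 96 HAI (60 without infested replicate 3, beside 2.99%), 0 to 40 in P746 at 48 HAI (40 without infested replicate 2, beside 2.67%) and 0 to 6 in P746 at 96 HAI (6 higher without infested replicate 3, beside 0.25%, and 2 lower without mock replicate 1, beside 0.152%). P203 at 24 HAI and the P746 interaction kept 0 under every alternative run, and no direction reversed. Of the 27 calls of named genes, 27 were kept with DESeq2, RLE or totals alone, 26 without the filter, 19 with all loci and 6 with the block. The choice of genes also moved: 95 of the 150 stayed with a pseudocount of 5, and 89 to 143 with 1 Dongnong47 library left out (89 without infested replicate 3, 94 without mock replicate 1). With 3 libraries a group, 2-fold changes were often missed in simulation, and genes under 0.103 to 0.247 CPM cannot be told from 0.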
